A study of Stropharia rugosoannulata with 3 samples.

Results

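The NADPH oxidase (Nox) genes of Stropharia rugosoannulata are SRUG_01647 and SRUG_09509, 2 of the 11750 gene models in the expression tables. They were taken as the members of the Nox group in the study's tree of peroxidase-related proteins, where neither is marked as secreted, so the rule that chose them uses no level. Both were found in the tables by their SRUG ID. Mycelia of this edible, litter-decomposing mushroom were cultivated on potato dextrose agar (PDA) plates at 25 °C, and 3 RNA libraries were made, which are replicates of a single condition, the mycelium stage. The labels give the strain as Heinong No.1, a commercial cultivar, while the sample titles name S68, a monokaryon obtained from a single spore of that cultivar. Nothing states that the libraries came from separate cultures, so the spread between them may in part be technical. No other stage, substrate or strain was sampled.

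Nox enzymes are membrane proteins that take electrons from NADPH, pass them through FAD and heme groups across the membrane, and hand them to oxygen on the other side, which yields superoxide and then hydrogen peroxide. They therefore make reactive oxygen, whereas peroxidases consume peroxide. In filamentous ascomycetes such as Aspergillus nidulans, Podospora anserina and Neurospora crassa, Nox genes are known for roles in sexual fruiting body formation, in hyphal growth and in ascospore germination, and the enzymes act with a cytosolic regulator, NoxR. The sources used here do not say which fungal Nox subfamily SRUG_01647 or SRUG_09509 belongs to. The gene for a Nox regulator was not analysed here, since no source used here pairs an SRUG ID with it, and no sequence of these genes was used.

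The counts of the libraries summed to between 29678333 and 31831513. Library 2 lay somewhat apart: across all models its log2(FPKM + 1) correlated with library 1 at r = 0.969 and with library 3 at r = 0.973, while libraries 1 and 3 correlated at 0.985. The main values are therefore also given without library 2. These are descriptions across genes, which are not independent replicates. FPKM counts sequenced fragments per unit of gene length and of library size, and is the per-length scale used below for comparing genes.

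SRUG_01647 was one of the most abundant transcripts of the mycelium. It had 1759, 1434 and 1889 FPKM in libraries 1, 2 and 3, a mean of 1694 ± 234 FPKM (SD, n = 3). These values came from 100547, 78306 and 100776 counts. The lowest library was library 2 and the highest library 3, and the highest value was 1.32 times the lowest. The gene held 0.316%, 0.257% and 0.340% of all counts in libraries 1, 2 and 3, with 95% Wilson intervals of 0.314 to 0.318%, 0.255 to 0.258% and 0.337 to 0.342%. The intervals do not overlap, but they cover counting error within a library only. They take every count as independent and are too narrow if each fragment adds 2 counts. The paper names no molecular identifiers, so copies of a fragment made by amplification may also be counted. Its FPKM was 83.8, 56.5 and 79.2 times that of the median model of the same libraries. In mycelium as a whole, a higher level in every cell and a larger share of cells that express a gene cannot be told apart.

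SRUG_09509 was also well expressed, at a much lower level. It had 184, 251 and 217 FPKM in libraries 1, 2 and 3, a mean of 217 ± 33.3 FPKM (SD, n = 3). These values came from 11446, 14879 and 12542 counts. Here library 2 was the highest and library 1 the lowest, with a factor of 1.36 between them. The gene held 0.0360%, 0.0488% and 0.0423% of all counts (95% Wilson intervals 0.0353 to 0.0366%, 0.0480 to 0.0495% and 0.0415 to 0.0430%). It stood at 8.79, 9.89 and 9.08 times the FPKM of the median model. The mean of both Nox genes was above 1 FPKM, a level that 83.3% of all models reached, and both were above that level in each single library, as were 80.9% of the models, so reaching it does not set them apart.

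SRUG_01647 exceeded SRUG_09509 in each of the 3 libraries, and the ranges of the genes did not overlap: the lowest value of SRUG_01647 was 1434 FPKM and the highest of SRUG_09509 was 251 FPKM. Within libraries 1, 2 and 3 the FPKM ratio of SRUG_01647 to SRUG_09509 was 9.54, 5.71 and 8.72, with a geometric mean of 7.80. On the log2 scale the difference was 2.96 ± 0.39 (SD, n = 3). The direction held in 3 of 3 libraries, but an exact two-sided sign-flip permutation test over 3 libraries gave p = 0.25, the smallest value it can give, and so cannot pass 0.05. Of the summed FPKM of the pair, 90.5%, 85.1% and 89.7% was on SRUG_01647 in libraries 1, 2 and 3. The ratio in counts, which is not corrected for length, was 8.78, 5.26 and 8.04, since both genes have similar counts per FPKM (57.2 for SRUG_01647 and 62.1 for SRUG_09509 in library 1). Counts per FPKM grow with the gene length used by the authors, and these values were 1.24 and 1.35 times that of the median of 8286 models with at least 200 counts in every library, which puts SRUG_01647 above 66.6% and SRUG_09509 above 72.0% of those models by this measure.

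The low ratio of library 2 arose from both genes at once, because SRUG_01647 was at its lowest there and SRUG_09509 at its highest. Without library 2 the geometric mean of the ratio was 9.12, the mean level of SRUG_01647 was 1824 FPKM and that of SRUG_09509 was 200.5 FPKM.

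**Figure D1:**
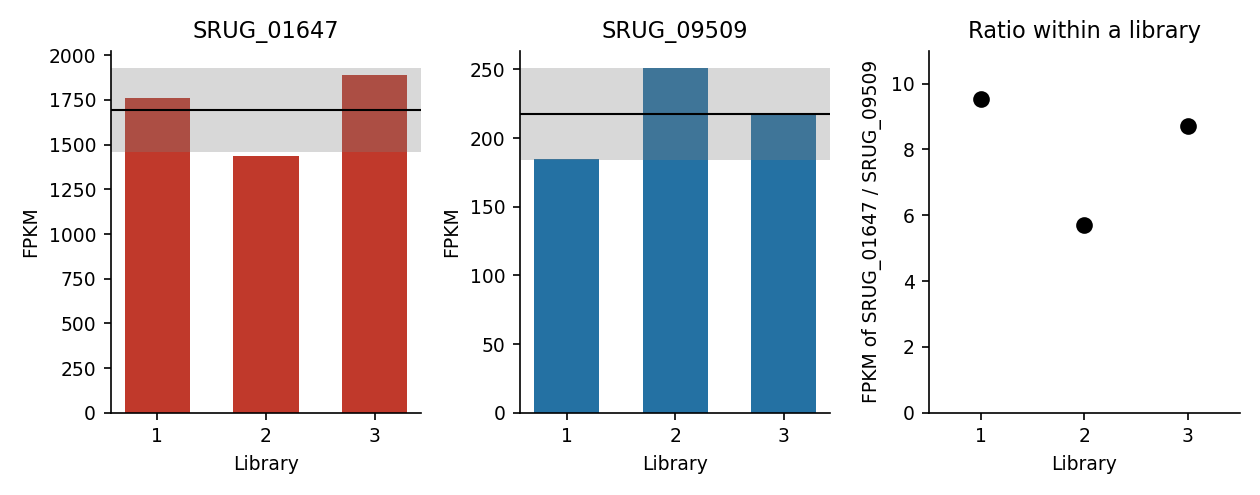
FPKM of SRUG_01647 (left) and SRUG_09509 (middle) in libraries 1, 2 and 3, with the mean as a black line and ± 1 SD as a grey band, each panel on its own axis from 0; the right panel gives the FPKM ratio of SRUG_01647 to SRUG_09509 within each library. SRUG_01647 is lowest in library 2 at 1434 FPKM, SRUG_09509 is highest there at 251 FPKM, and the ratio is 5.71 in library 2 against 9.54 and 8.72 in libraries 1 and 3.

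Among all 11750 models, SRUG_01647 held place 37 from the top by mean FPKM. Its single-library ranks were 35, 57 and 35 in libraries 1, 2 and 3. It was above 99.7% of the models by mean. The models next to it in this order were SRUG_08704, ranked 36 with 1720 ± 424 FPKM, and SRUG_09629, ranked 38 with 1691 ± 406 FPKM (SD, n = 3 each), and neither differed from it by more than the spread between libraries. A firmer statement comes from models whose order against the gene was the same everywhere: 22 models were higher in all 3 libraries and 11682 were lower in all 3, which leaves 45 models whose order against SRUG_01647 was not resolved. By TMM-normalized CPM, counts scaled to the library but not to gene length, it ranked 13. Without library 2 its place by mean FPKM was 35.

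SRUG_09509 held place 679 by mean FPKM, above 94.2% of the models. Its single-library ranks were 874, 512 and 678 in libraries 1, 2 and 3. Its neighbours in the order, SRUG_10237 (rank 678, 217 ± 56.1 FPKM) and SRUG_08328 (rank 680, 217 ± 268 FPKM; SD, n = 3 each), were within its spread. A total of 457 models were higher in all 3 libraries and 10810 were lower in all 3, so its order was unresolved against 482 models. Its rank by TMM-normalized CPM was 347, and its place by mean FPKM without library 2 was 770. More models lie near this level: the ranges of 625 models overlapped that of SRUG_09509, against 62 for SRUG_01647.

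**Figure D2:**
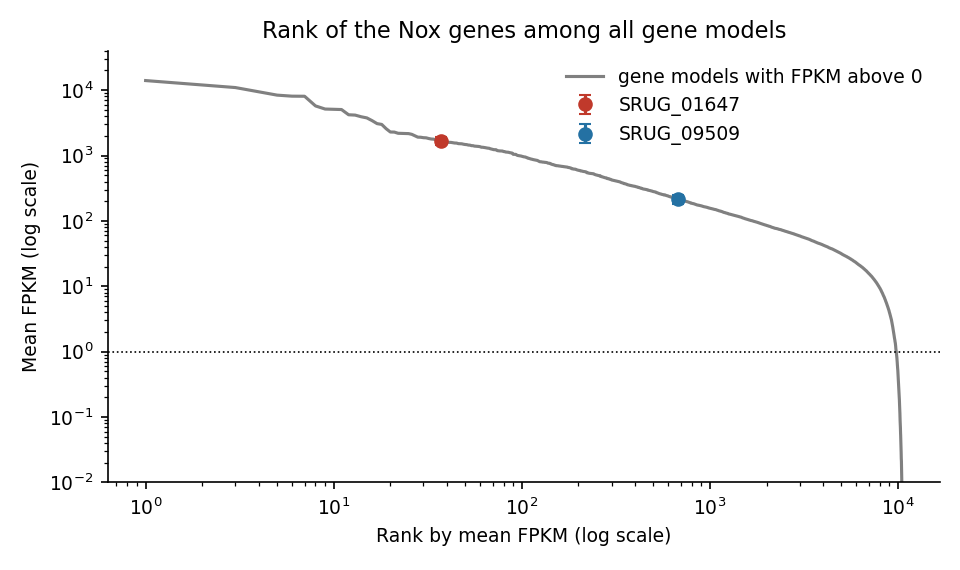
Mean FPKM of every gene model with FPKM above 0 against its rank, both axes on a log scale, with the Nox genes as points (error bars, SD over 3 libraries, are smaller than the points) and the level of 1 FPKM as a dotted line. SRUG_01647 lies at rank 37 and SRUG_09509 at rank 679, both on the upper part of the curve.

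SRUG_02817, a secreted hybrid ascorbate-cytochrome c peroxidase, gives a point of comparison for an enzyme that uses peroxide. It is the peroxidase gene whose level the text of the study names. The study puts it among the 3 highest expressed of all its peroxidase-encoding genes, among which it counts the Nox genes. SRUG_02817 is thus a comparison gene of high level. It had 323, 406 and 222 FPKM in libraries 1, 2 and 3, a mean of 317 ± 92.0 (SD, n = 3). SRUG_01647 was 5.45, 3.53 and 8.51 times as high in libraries 1, 2 and 3, above it in 3 of 3. SRUG_09509 was at 0.571, 0.618 and 0.975 times its FPKM in the same libraries, below it in each, and in library 3 the pair stood at 217 and 222 FPKM. Without library 2 the geometric mean of the ratio to SRUG_02817 was 6.81 for SRUG_01647 and 0.747 for SRUG_09509. The exact sign-flip permutation test gave p = 0.25 for both comparisons, again the smallest it can give. These p-values were not adjusted for the 3 pairs compared, and an adjustment cannot lower them. SRUG_02817 varied more than either Nox gene, with a coefficient of variation of FPKM (CV, the SD as a percentage of the mean) of 29.0% against 13.8% for SRUG_01647 and 15.3% for SRUG_09509.

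The spread of the Nox genes between libraries was well above counting error. Counting alone would give a relative error between 0.446% and 0.505% for SRUG_01647 and between 1.16% and 1.32% for SRUG_09509 if each fragment adds 2 counts, against the CVs of 13.8% and 15.3%. Set beside models of similar level, the genes were of ordinary or somewhat low spread. For SRUG_01647 these were the 36 models above it and the 100 next below it by mean FPKM, from 770.1 to 13998 FPKM. Of these 136, 31 (22.8%) had a lower CV, and their median CV was 23.0% with quartiles of 15.3% and 32.4%. This place rested on single libraries: without library 1 it was 57.4% of the models of similar level that had a lower CV, and without library 2 it was 14.9%.

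For SRUG_09509 the 100 models next above and the 100 next below spanned 191 to 248 FPKM, a much narrower range. Of these 200, 76 (38.0%) had a lower CV, and their median was 18.2% with quartiles of 12.0% and 28.9%. On TMM-normalized CPM the CV of SRUG_09509 was 10.4%, and 13.0% of the models of similar level, chosen anew by mean CPM, had a lower one. On the same scale the CV of SRUG_01647 was 16.5%, and 29.5% of the models chosen in this way had a lower one. The change of scale, together with the change of models compared, thus moved the genes in opposite directions. Relative to TMM, the FPKM values shifted the median model upwards by 0.15 on the log2 scale in library 2 over library 1 and by 0.13 in library 3 over library 1.

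The biological coefficient of variation (BCV), which edgeR estimates as the relative spread beyond counting noise and draws towards that of genes of like abundance, was 0.28 for SRUG_01647 and 0.25 for SRUG_09509. The trend at their abundance was 0.317 and 0.292, and the common value over 9856 models was 0.304. Of those 9856 models, 58.6% had a lower BCV than SRUG_01647 and 42.1% a lower one than SRUG_09509, so both lay near the middle. Among models of similar level, 66 of 136 had a lower BCV than SRUG_01647 and 85 of 200 a lower one than SRUG_09509. Without library 2 the BCV was 0.232 for SRUG_01647 and 0.218 for SRUG_09509. The gene-wise estimates of DESeq2, which are not drawn towards other genes, were 0.166 and 0.101 for the same genes.

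**Figure D3:**
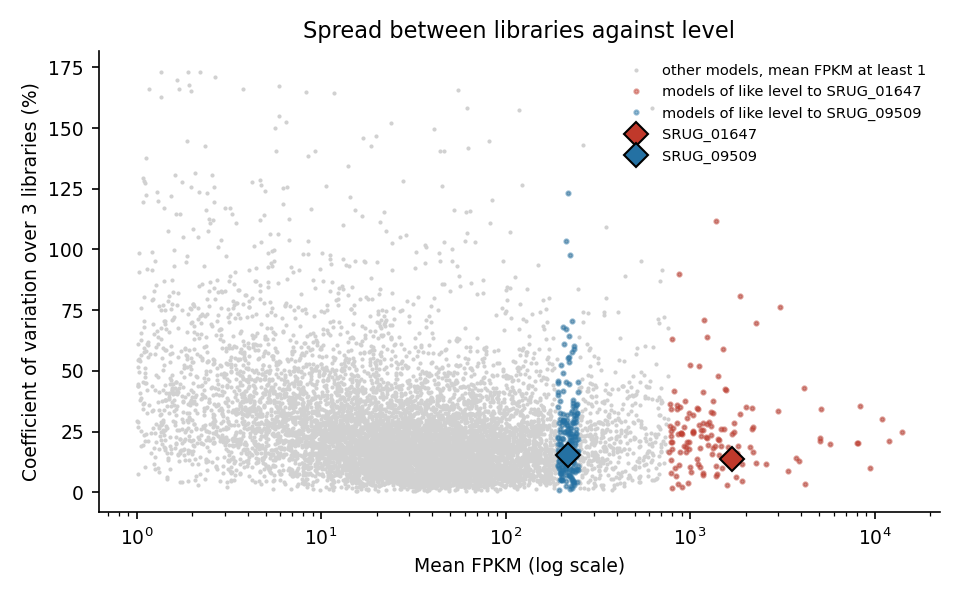
CV of FPKM over the 3 libraries, in percent, against mean FPKM on a log scale for models with a mean FPKM of at least 1; coloured dots are the models of similar level to each Nox gene and diamonds are the Nox genes. SRUG_01647 (13.8%) lies in the lower part of its coloured group, whose median is 23.0%, and SRUG_09509 (15.3%) slightly below the median of its group, 18.2%.

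Because earlier results of these data had library 2 apart from the others, that library was set against the other libraries on TMM-normalized CPM. SRUG_01647 had 2472 CPM in library 2, against 3375 and 3302 CPM in libraries 1 and 3, a log2 difference of -0.43 from their mean. Of 9856 models, 19.8% deviated further down in library 2. SRUG_09509 had 469.6 CPM in library 2, against 384 and 411 CPM in libraries 1 and 3, a log2 difference of 0.24, and 70.5% of the models lay below it. Neither deviation is rare: TMM-normalized CPM was lowest in library 2 for 37.7% of the models and highest there for 37.7%, and the quartiles of the deviation over all these models were -0.34 and 0.31.

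Models of similar level give another view of the same values. Among the 136 at the level of SRUG_01647 the median deviation was -0.10, and 40 of them lay below it. Among the 200 at the level of SRUG_09509 the median was -0.30, and 177 of them (88.5%) lay below SRUG_09509, so at its own level this gene was among the models that were relatively high in library 2. Between libraries 3 and 1 the size of the difference depended on the scale. On TMM-normalized CPM the log2 difference (library 3 over library 1) was -0.03 for SRUG_01647 and 0.10 for SRUG_09509, and 2 of the 136 models at the level of SRUG_01647 and 26 of the 200 at that of SRUG_09509 had a smaller absolute difference. On FPKM it was 0.10 for SRUG_01647, with the other sign, and 0.23 for SRUG_09509, and 20 of the 136 and 75 of the 200 models had a smaller one. For SRUG_09509 the FPKM difference of 0.23 was close to that of library 2 over library 3, 0.21. With 3 replicates of a single condition no test was made of these deviations, and their source was not tested.

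**Figure D4:**
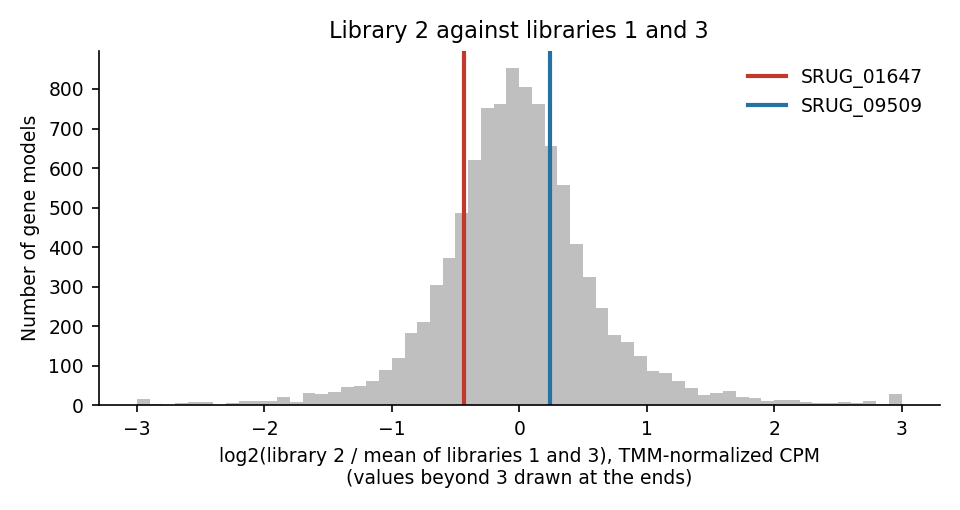
Number of gene models by the log2 ratio of TMM-normalized CPM in library 2 to the mean of libraries 1 and 3, in steps of 0.1, for the 9856 models that passed the filter on low counts. SRUG_01647 stands at -0.43, left of the centre, and SRUG_09509 at 0.24, right of it, both inside the bulk of the models.

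The names of the models place SRUG_01647 as model 333 of contig 2 and SRUG_09509 as model 251 of contig 11, so the Nox genes are not neighbours. SRUG_01647 has 329 listed models before it and 1014 after it on its contig, and SRUG_09509 has 247 before it and 363 after it, which puts both far from the contig ends. By mean FPKM SRUG_01647 was the 3rd highest of the 1344 models of contig 2, and SRUG_09509 the 33rd of the 611 models of contig 11. Coordinates were not used here, so distances are given in models.

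SRUG_01647 stood far above its nearest neighbours. The 5 models listed before it (SRUG_01642 to SRUG_01646) and the 5 after it (SRUG_01648 to SRUG_01652) had a median of 52.6 FPKM (51.2 without library 2), 32.2 times below the gene, and the highest of them, SRUG_01643, had 108 ± 17.5 FPKM (SD, n = 3). The gene held 80.1%, 72.6% and 76.4% of the summed FPKM of these 11 models in libraries 1, 2 and 3 and was the highest of them in each. The models that adjoin it directly, SRUG_01646 with 23.2 ± 8.08 FPKM and SRUG_01648 with 87.1 ± 18.5 FPKM (SD, n = 3 each), were 73.1 and 19.5 times lower. The others ranged from 0.314 FPKM in SRUG_01652, with 5, 8 and 7 counts, and 3.29 FPKM in SRUG_01642 to 84.1 FPKM in SRUG_01644. With 10 models on each side it was still the highest of 21, but SRUG_01641, 6 models away, then came next with 924 ± 249 FPKM (SD, n = 3; this model and the further ones named below were picked out after their values were seen). The nearest model with a higher mean on the contig was SRUG_01710, 63 models further on, with 5135 FPKM.

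The neighbours of SRUG_01647 did not share a single pattern over the libraries. SRUG_01648, SRUG_01650 and SRUG_01651, all after the gene, were lowest in library 2 on TMM-normalized CPM, as the gene itself was, with log2 deviations of -0.51, -0.33 and -0.39. Of the other 7 neighbours, 6 were highest in library 2, among them the adjoining SRUG_01646 with 0.65. Lowest in library 2 were thus 3 of 10 neighbours, against 37.7% of the 9856 models that passed the filter on low counts. Highest there were 6 of 10, also against 37.7%. The neighbours were counted without that filter, and SRUG_01652, with 5, 8 and 7 counts, is among the 6. With 10 neighbours these counts are a description only.

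SRUG_09509 was also the highest of its 11 models by mean and in each library, by a smaller margin. Its 10 neighbours, SRUG_09504 to SRUG_09508 and SRUG_09510 to SRUG_09514, had a median of 23.7 FPKM (23.3 without library 2), 9.18 times below the gene. SRUG_09505 was the highest of them with 119, 86.6 and 165 FPKM in libraries 1, 2 and 3, against 184, 251 and 217 FPKM for the Nox gene, so the gap was smallest in library 3. SRUG_09507, 2 models before the gene, had 96.1 ± 13.2 FPKM (SD, n = 3). The models that adjoin SRUG_09509 were low, at 4.30 ± 1.56 FPKM for SRUG_09508 and 16.5 ± 0.449 FPKM for SRUG_09510 (SD, n = 3 each), 50.5 and 13.2 times below it.

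SRUG_09511 was at 0.445 FPKM, and SRUG_09506 had 2 counts in library 1 and 0 in libraries 2 and 3, where a count of 0 allows up to 6 counts. Of these 10 neighbours, 4 were lowest in library 2 and 1, SRUG_09514, was highest there. Each compares with 37.7% of the 9856 models that passed the filter on low counts, which was not applied to the neighbours. The log2 deviation of library 2 from the mean of the other libraries was 0.07 for SRUG_09514, and it was larger for SRUG_09508 (0.35) and SRUG_09511 (0.34), which were low in library 3 and had at most 100 counts. With 10 models on each side the Nox gene was the highest by mean and in libraries 2 and 3, but in library 1 it came after SRUG_09502, 7 models away. SRUG_09502 had a mean of 192 FPKM. The nearest model with a higher mean was SRUG_09498, 11 models before it, at 505 FPKM.

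Standing above all 10 neighbours was a property of 8.69% of the 11540 models that have 5 models on each side, and both Nox genes had it. With 10 models on each side it held for 4.59% of the models, and again for both Nox genes. Both shares are over models of every level, and none was computed for models of similar level. Ranked by the ratio of a model's own mean FPKM to the median of its 10 neighbours, a measure added after the data were seen, SRUG_01647 was number 325 and SRUG_09509 number 955 of the 10992 models whose neighbours had a median above 0. SRUG_01647 was thus further up by its level (37) than by its contrast with its surroundings. Without library 2 the places were 315 and 1059. The ratio of SRUG_01647 was 44.2, 28.0 and 31.1 in libraries 1, 2 and 3, and that of SRUG_09509 was 8.53, 10.3 and 8.66.

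**Figure D5:**
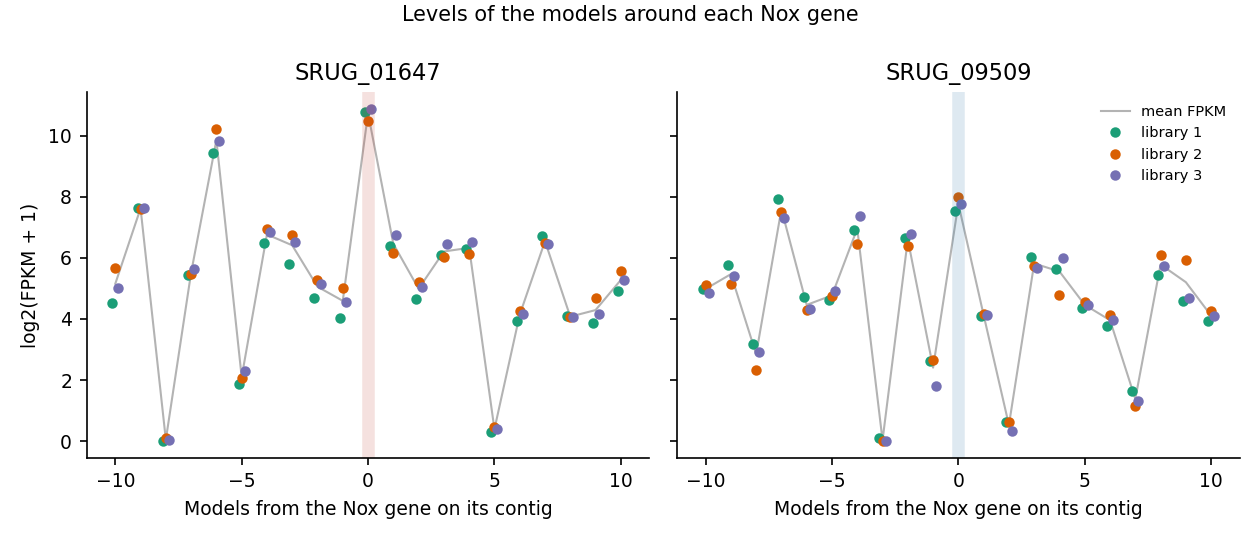
log2(FPKM + 1) of the 10 models before and the 10 after SRUG_01647 (left) and SRUG_09509 (right) in libraries 1, 2 and 3 (coloured points), with the mean FPKM as a line and the Nox gene at 0. Each Nox gene stands above the models that adjoin it; SRUG_01641, 6 models before SRUG_01647, is the next highest on the left, and SRUG_09502, 7 models before SRUG_09509, comes close to it on the right and is above it in library 1.

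The models most like each Nox gene were found by the Euclidean distance of log2(FPKM + 1) over the 3 libraries, which takes in both level and pattern. For SRUG_01647 the 5 nearest were SRUG_09629 (distance 0.23), SRUG_04925 (0.28), SRUG_08304 (0.30), SRUG_09988 (0.30) and SRUG_06374 (0.30). SRUG_09629, SRUG_04925 and SRUG_09988 were lowest in library 2, as the Nox gene was, which is part of how they were found. SRUG_08304 and SRUG_06374 were not lowest there. SRUG_09629, on the contig of SRUG_09509, had 1645, 1310 and 2119 FPKM in libraries 1, 2 and 3. SRUG_08304 was steadier than the Nox gene, with a CV of 2.83%.

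For SRUG_09509 the 5 nearest lay closer. They were SRUG_05504 (distance 0.11), SRUG_09933 (0.13), SRUG_10564 (0.14), SRUG_06204 (0.14) and SRUG_02179 (0.16). All 5 were highest in library 2, which is part of how they were found. SRUG_05504 had 184, 260 and 233 FPKM in libraries 1, 2 and 3, nearly the values of the Nox gene itself. With 3 libraries of a single condition, likeness of this kind describes level and replicate spread, and no function is given for these models in the sources used here.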

How the data were processed

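The authors deposited 4 tables of 11750 gene models for 3 libraries. In the deposited count tables, one per gene and another per transcript, the values were whole numbers without normalization and differed in 0 cells. The FPKM values, which the authors computed per length and library size, stood in a pair of tables that also differed in 0 cells. The submitters' processing notes name fastp, HISAT2 and StringTie without roles or versions, and the paper names Hisat2 as the mapper of the mycelial reads for gene prediction. The handling of strand and of multi-mapping reads and the total used for FPKM are details not given in the sources used here. Of the counts from 1 to 10, 67.7% were even, as when a fragment adds 2 counts. A count of 0 was read as allowing 3 fragments, or 6 counts.

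Columns were matched to libraries by the label in the sample title. The rule for the members uses no level, but that rule, the gene lists and the measures were chosen with earlier results of these data known. Named are the Nox genes, the 5 models on each side on the contig, the 5 models nearest in log2(FPKM + 1) and SRUG_02817. Contig and model number came from the model names. TMM factors and the BCV (design with an intercept alone, models passing filterByExpr) came from edgeR 4.0.16 in R 4.3.3, with DESeq2 1.42.0 as the alternative. No differential test was made, as there is 1 condition. The place by CV among models of similar level and the BCV were tested on simulated data with large built-in differences in spread. Python 3.11.15, pandas 2.3.3, NumPy 2.4.6, SciPy 1.17.1 and matplotlib 3.10.9 were used.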

Additional observations from a re-analysis of the deposited data

How the results depend on the processing

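Across 109 combinations of a result and an alternative setting, 95 stayed within the spread between libraries or, for ranks, percentages and BCV, within 1.5 times the value given, and 0 changed sign. Some of the 95 could not move, such as the levels from the second FPKM table, which differed from the first in 0 cells. Only the deviations of library 2 and the log2 ratio of the Nox genes have a sign that could change. Expressed as TPM, which rescales all genes of a library by the same factor, the means were 1947 (SRUG_01647) and 250 (SRUG_09509). By TMM-normalized CPM the ranks were 13 (SRUG_01647) and 347 (SRUG_09509). The share of models of similar level with a lower CV than SRUG_09509 was 13.0% with TMM and 13.0% with DESeq2 size factors. That for SRUG_01647 ran from 14.9% to 57.4% with each library left out. In each of these settings the models of similar level were chosen anew. DESeq2 gave a gene-wise BCV of 0.166 for SRUG_01647 and 0.101 for SRUG_09509. Scaled by library totals, the log2 deviation of library 2 was -0.35 for SRUG_01647 and 0.32 for SRUG_09509. With 10 models on each side the neighbours of SRUG_01647 had a median of 36.2 FPKM and its local contrast ranked 206, and with 3 on each side those of SRUG_09509 had a median of 10.4 FPKM. The ratio of the Nox genes ran from 7.06 to 9.12 with each library left out. The deviation of library 2 has no value without library 2. No paired analysis was possible because there was a single group. Depth did not limit the Nox genes, whose lowest count was 11446, whereas the lowest neighbours rest on a few counts.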
